A study of Mus musculus with 5 samples.

Results

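Of the regions called in RNA immunoprecipitation sequencing of mouse hippocampus, 860 hold at least 1 annotated gene from its first to its last base, and these regions are described here. They were found from the position field of the deposited annotation, which marks a gene that lies whole within a region, and no read number entered the choice. The 4 deposited lists hold 16828 regions in all, and the 860 members fall into them as 162 of 4191 (HA over IgG, mouse 1), 100 of 1920 (HA over IgG, mouse 2), 339 of 5355 (HA over wild type, mouse 1) and 259 of 5362 (HA over wild type, mouse 2). Over the 4 lists they enclose 758 gene names: 241, 157, 542 and 373 in that order.

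The precipitated protein is CYFIP1, which joins the actin-regulating WAVE complex and a translation-repressing complex with the fragile X protein. Anti-HA beads pulled RNA from the hippocampus of 2 C57BL/6 knock-in mice (knock-in HA), mouse IgG pulled RNA from knock-in mice 1 and 2 as a control (knock-in IgG), and anti-HA was used on 1 C57BL/6 wild-type mouse as the other control (wild-type HA). The labels give no age, sex or allele beyond "knock-in", and both lists over wild type share the 1 wild-type library. Folds over wild type in mice 1 and 2 are therefore not independent. Beyond the numbers of the knock-in mice, nothing says how the samples were taken, so p-values measure only the spread between these samples, which may be technical. The tissue was whole hippocampus, so fewer cells of a type and less RNA per cell cannot be told apart.

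Genes this short come in a few kinds. MicroRNA genes give hairpins from which a short mature RNA is cut, whose seed near the 5′ end pairs with target mRNAs. Small nucleolar RNAs (snoRNAs) guide chemical changes of ribosomal RNA and are mostly cut from introns of longer host transcripts. Intronless coding genes, processed pseudogenes and short antisense transcripts are further kinds. Many of these genes sit inside a longer gene, so a region that encloses one can hold reads of the host. The sources do not say whether reads were counted by strand, so a gene and a host on the opposite strand cannot be told apart either.

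Mature sequences were taken from RefSeq (GRCm38.p6 coordinates), where 113 of the 174 enclosed microRNA genes had an entry, with 202 mature sequences. The ones below belong to the genes the results turn on, and capitals mark the seed, bases 2 to 8 from the 5′ end. The largest group of enclosed microRNA genes with 1 seed was the let-7 family, with 4 genes that lie in 2 places: Mirlet7b and Mirlet7c-2 on chromosome 15, Mirlet7f-2 and Mir98 within Huwe1 on chromosome X. The hairpin genes lie on the plus strand of mm10 at chr15:85707319-85707403 (Mirlet7b), chr15:85706603-85706697 (Mirlet7c-2), chrX:151912346-151912428 (Mirlet7f-2) and chrX:151913214-151913321 (Mir98).
mmu-let-7b-5p: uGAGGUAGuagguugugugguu
mmu-let-7c-5p: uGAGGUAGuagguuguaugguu
mmu-let-7f-5p: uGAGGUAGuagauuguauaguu
mmu-miR-98-5p: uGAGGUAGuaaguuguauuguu
The neighbours Mir29b-2 and Mir29c on chromosome 1 share another seed, at chr1:195037040-195037120 and chr1:195037547-195037634.
mmu-miR-29b-3p: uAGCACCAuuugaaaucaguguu
mmu-miR-29c-3p: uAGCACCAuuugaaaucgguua
Genes of the imprinted cluster on chromosome 12 and the Mir153 gene within Ptprn2 (chr12:117250817-117250885) have seeds of their own among the sequences shown; Mir134 lies at chr12:109734139-109734209 within Mirg.
mmu-miR-127-3p: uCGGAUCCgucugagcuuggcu
mmu-miR-134-5p: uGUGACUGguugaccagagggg
mmu-miR-154-5p: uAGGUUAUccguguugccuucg
mmu-miR-410-3p: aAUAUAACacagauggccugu
mmu-miR-153-3p: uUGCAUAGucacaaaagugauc

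Some of the most-read members enclose copies of 1 short sequence that GENCODE M21 annotates as microRNA genes. Gm23935, Gm24187 and Gm24245 had no mature sequence among the RefSeq entries, and whether they give a microRNA was not tested. Gm23935 (chr16:11144125-11144181, plus strand) and Gm24187 (chr13:9834469-9834525, minus strand) are both 57 bases long in GENCODE M21 and differ by 1 base, G11A counted from the 5′ end, shown in capitals.
Gm23935: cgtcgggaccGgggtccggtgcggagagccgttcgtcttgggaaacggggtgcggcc
Gm24187: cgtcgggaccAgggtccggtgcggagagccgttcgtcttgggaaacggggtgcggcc
Identical to Gm23935 is Gm24245 (chr4:139338304-139338360), enclosed in 1 region of mouse 2 over wild type, and Gm24270 has the same bases. Reads from identical copies cannot be told apart by their sequence, so the reads at each of these places are uncertain.

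Enclosed genes were mostly noncoding. MicroRNA genes were 99, 67, 120 and 116 of the enclosed genes (41.1%, 42.7%, 22.1% and 31.1%), with a median length of 78, 80, 79 and 79 bases. The imprinted cluster on chromosome 12 alone held 42, 36, 37 and 36 of them. SnoRNA and scaRNA genes numbered 12, 23, 103 and 65, of which 55 in the wild-type list of mouse 1 were on chromosome 7. Protein-coding genes numbered 63, 37, 192 and 88, and long noncoding genes 36, 14, 62 and 54. All of the enclosed microRNA and snoRNA genes had 1 exon, whereas only 6, 5, 9 and 12 of the coding genes did. The name "small" fits the noncoding members better than the coding ones: the median coding gene was 4751, 4440, 5365 and 4544 bases long, and the longest, Gprasp1, spanned 60742 bases and Shank1 48099. Of the microRNA genes, 66, 47, 94 and 84 lay on the same strand within a longer annotated gene.

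**Figure D1:**
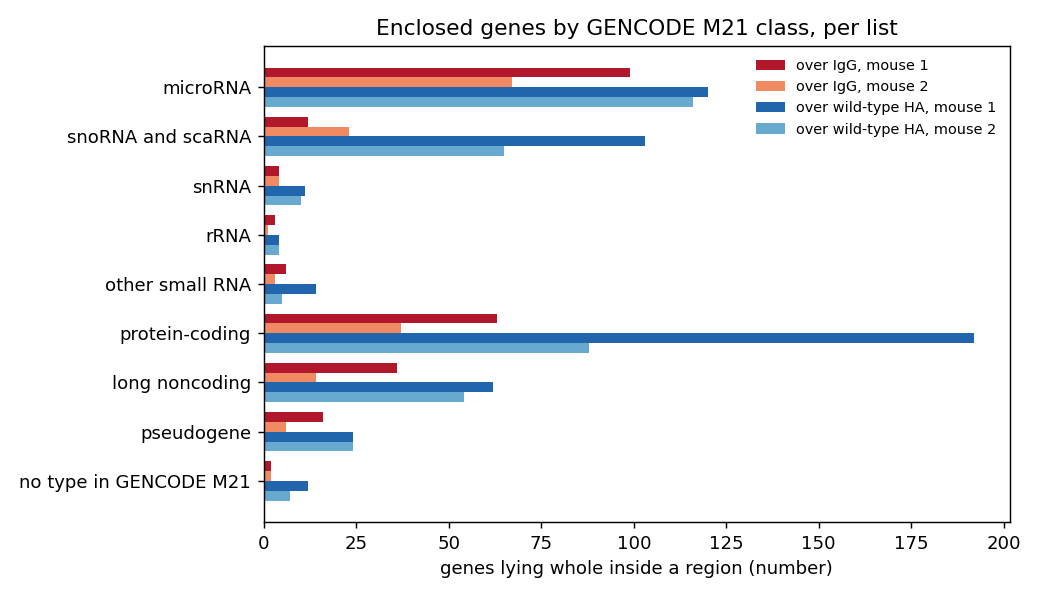
Number of genes that lie whole inside a region (x axis) by GENCODE M21 class (y axis) in the 4 lists (bar colour). MicroRNA genes lead in both IgG lists (99 and 67), and protein-coding genes in the wild-type list of mouse 1 (192). Of the microRNA genes in the IgG lists, 42 and 36 lie in the imprinted cluster on chromosome 12.

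The enclosed genes filled little of most regions. The share of a region covered by its enclosed genes had a median of 16.9%, 8.58%, 20.2% and 16.3%, and 55, 41, 109 and 92 members had less than 5% covered. Enclosed genes covered at least 50% of the region in 43, 30, 103 and 75 members. Members were also wider than the other regions, which follows in part from the rule, since a region must exceed the gene it encloses. The median width was 7420, 8200, 9690 and 6750 bp against 1600, 1995, 1845 and 1750 bp for the other regions of each list. A single gene was enclosed in 133, 80, 241 and 208 members, and the fullest, over wild type in mouse 2, enclosed 20.

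**Figure D2:**
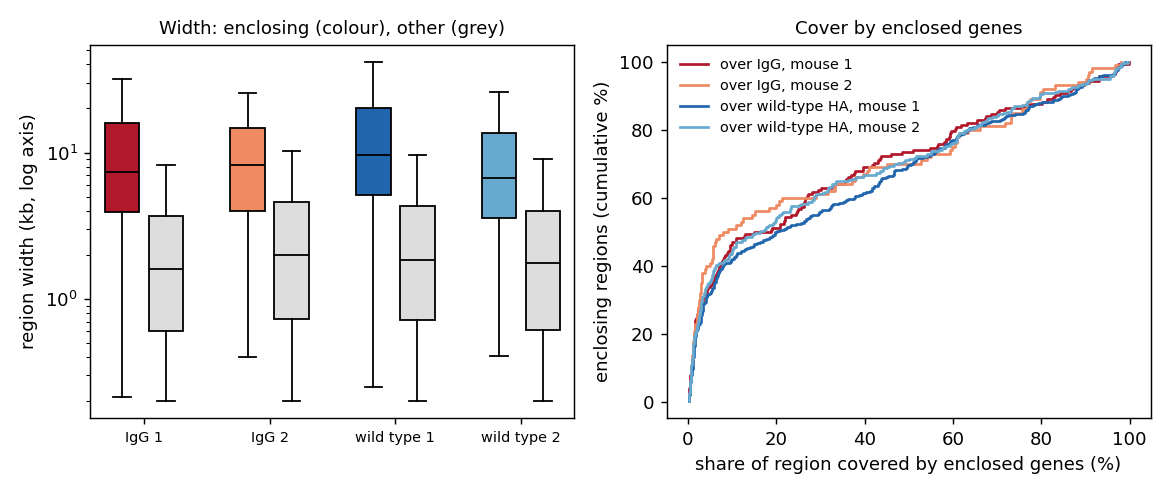
Left, region width in kb on a log axis for members (coloured boxes) and other regions (grey boxes) of each list: box, quartiles with the median line; whiskers, values within 1.5 box lengths. Right, cumulative percent of members (y axis) by the share of the region that enclosed genes cover (x axis); in each list most members lie under 50%.

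Members held 24930 HA against 4722 IgG reads in mouse 1, and 10047 HA reads with 4878 control reads in mouse 2, which were 25% and 15.7% of the HA reads in all regions of those lists. Over wild type they held 69950 HA against 92657 wild-type reads in mouse 1, and 71858 HA reads with 100209 control reads in mouse 2 (45.3% and 43.1% of the HA reads). A single region, that of Yam1 described below, held most of these: without it, a setting chosen after the data were seen, members held 24362 HA against 13558 wild-type reads in mouse 1 and 23020 HA against 21110 in mouse 2 (22.4% and 19.5% of the HA reads). The median member held 19.5, 18.5, 23 and 18 HA reads and 8.5, 27.5, 15 and 9 control reads. Control reads were at or above HA reads in 12 of 162, 71 of 100, 49 of 339 and 24 of 259 members. Of all regions this held for 173 of 4191, 782 of 1920, 725 of 5355 and 537 of 5362. Library totals are unknown, so HA reads were divided by control reads and then by the median of that ratio over all regions of the list with at least 20 reads (2.89, 0.947, 1.41 and 1.75). This value is called the fold below, and 1 is the level of the middle region of a list. Where the control had 0 reads, 3 counts per region stood in for it, so that the fold is set below the read ratio. Its counting interval can reach lower still. A range such as 54.8 to 123 after a fold is its exact 95% counting interval (Clopper-Pearson on the HA share) and covers counting error only; the reads have no molecular identifiers.

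Over IgG, members lay below the middle of their lists; over wild type they lay near it. Of the members, 101, 74, 250 and 170 had at least 20 reads, and the median of their folds was 0.691 (IgG, mouse 1), 0.656 (IgG, mouse 2), 1.06 (wild type, mouse 1) and 1.03 (wild type, mouse 2), against 1 for all regions by construction. A fold above 1 was seen in 32 of 101, 15 of 74, 136 of 250 and 92 of 170 of them. A fold of 4 or more was reached by 4 members over IgG in mouse 1 and 4 in mouse 2, where 17.2% and 21.8% of all regions with 20 reads reached it. Over wild type 3 members reached it in mouse 1 and 0 in mouse 2, against 1.64% and 4.31% of all regions. A fold of 0.25 or less was found in 1 and 2 members over IgG (1.63% and 0.794% of all regions) and in 4 and 5 over wild type (4.32% and 4.75%). These are pairs of single libraries, so no test applies to the counts.

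**Figure D3:**
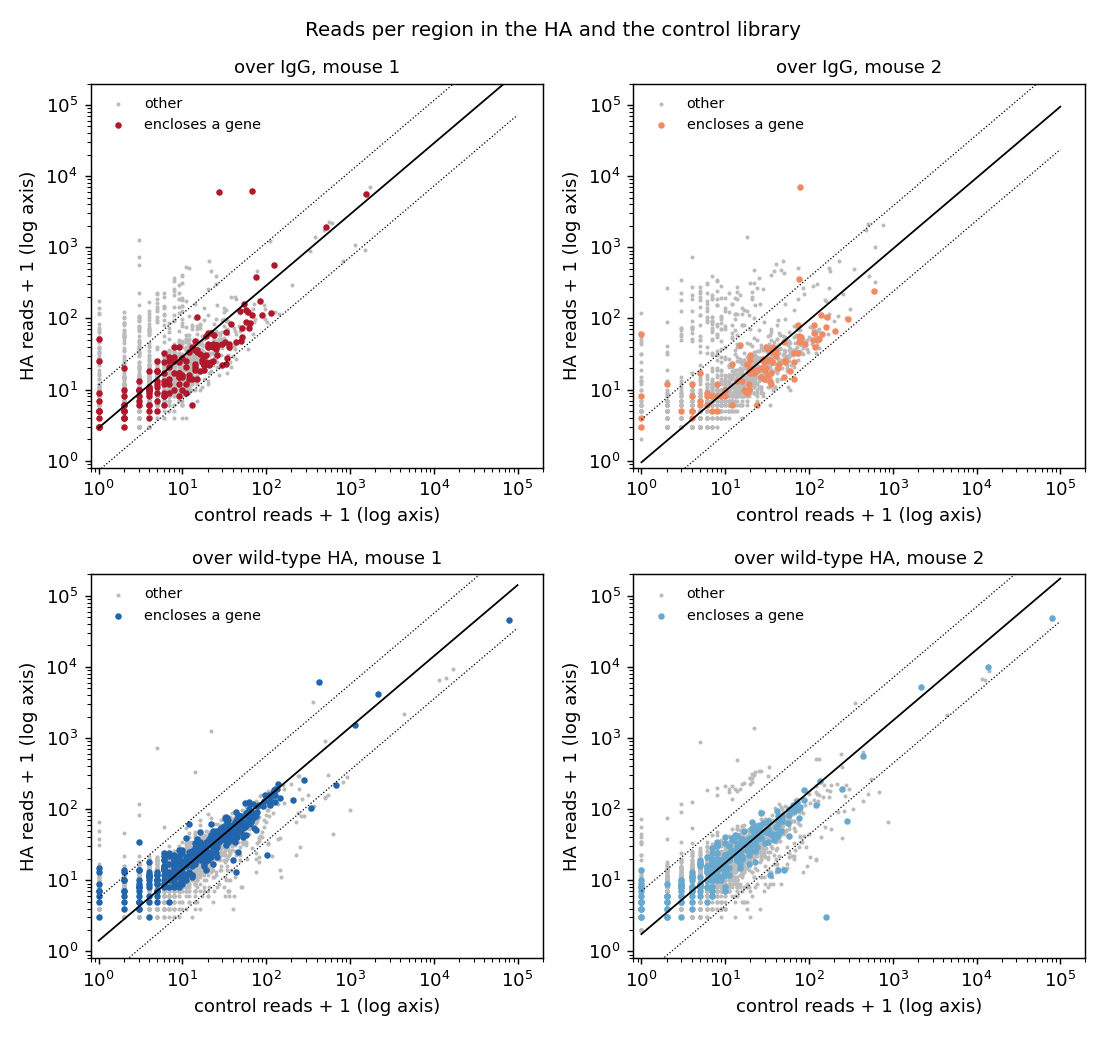
HA reads + 1 (y axis) against control reads + 1 (x axis), both on log axes, for members (colour) and other regions (grey) of the 4 lists; the solid line is the list's median ratio, the dotted lines 4 and 0.25 times it. Over IgG most members lie under the solid line (median fold 0.691 and 0.656), with the Rgag4 regions far above it.

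Where a region lies moved with its fold. Chromosomes 12 and 15 held 40.1% and 91.0% of the members over IgG, with 27.4% and 35.5% over wild type; of all regions they held 30.6%, 85.7%, 29.3% and 30.1%. On these chromosomes all regions with 20 reads had a median fold of 0.643 and 0.785 over IgG, and members 0.567 and 0.651. On the remaining chromosomes the medians over IgG were 1.17 and 11.8 for all regions, and 0.785 (58 regions) and 4.65 (6 regions, Rgag4 and Gm15202 among them) for members. Over wild type the median for all regions was 0.987 and 1.00 on chromosomes 12 and 15, and 1.00 in both mice on the remaining ones. With the median of the same chromosome as the scale, the members' median fold over IgG was 0.825 and 0.786. The part of the chromosome in the members' low folds over IgG was not tested further.

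The highest folds over IgG came from regions in which the enclosed gene takes up a small part of the span of a longer gene. Rgag4, a retrotransposon-derived coding gene of 4761 bases at chrX:102066544-102071304, lies within Nhsl2 on the opposite strand. Its region held 6046 HA against 26 IgG reads in mouse 1 (fold of 80.3, 54.8 to 123), and 6939 HA reads with 78 control reads in mouse 2 (fold of 94.0, 75.2 to 119), a mean log2 fold of 6.44 ± 0.16 (SD, n = 2). In mouse 1 the region spans 59450 bp and also encloses the pseudogene Gm5125. Gm15202, antisense within Nhs, had 50 HA against 0 IgG reads in mouse 1, and 59 HA reads with 0 control reads in mouse 2. With the counts that stand in for 0 control reads, its fold was 5.76 in mouse 1 and 20.8 in mouse 2. The counting intervals of these folds reached down to 4.51 in mouse 1 and 16.4 in mouse 2. Both HA libraries were thus high at these places and both IgG libraries low. Neither Rgag4 nor Gm15202 was enclosed in a region of the lists over wild type. Their folds therefore rest on the IgG control alone. Gm17907, a pseudogene, lies in a region of 62000 bp that also touches Cyfip1 and Nipa2, with 6101 HA reads, 67 IgG reads (fold of 31.5) and 431 wild-type reads (fold of 10) in mouse 1.

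The noncoding gene 2900097C17Rik lies in no longer gene and fills most of its region. It covered 70.1% and 71.8% of regions of 1640 and 1600 bp on chromosome 2. The HA libraries held 384 and 361 reads and the IgG libraries 74 and 75. Read numbers in both mice were alike, and the folds of 1.79 and 5.08 differ through the scale of the 2 lists. Against other regions of chromosome 2 it was low, at 0.158 and 0.349 of their median, so its direction depends on the scale.

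The other members at 4-fold or more that are named here had few reads. Over IgG, Fbxl14 (an F-box protein gene) had 19 HA reads and 1 IgG read in mouse 1 (fold of 6.56, 1.04 to 273). Over wild type in mouse 1, Pim3, a serine/threonine kinase gene, had 33 HA against 2 wild-type reads (fold of 11.7, 2.99 to 101), and 11 IgG reads (fold of 1.04). Kcns2, a modulatory potassium channel subunit gene, had 17 HA against 3 wild-type reads (fold of 4.01, 1.16 to 21.4), and 4 IgG reads (fold of 1.47). Pim3 and Kcns2 were thus high against 1 control and near the middle of the list against the other. The nearest members under the limit were Rab10os at 3.93 over wild type and Mir6940 at 3.09 over IgG.

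Some ribosomal RNA-like and other short RNA genes had low folds over wild type in both mice, and others did not. The median of ribosomal RNA genes was 1.12 (2 regions) and 1.08 (3), and Gm26280, a ribosomal RNA gene opposite Arl8a, had 26 and 41 HA reads with 9 and 13 wild-type reads (folds 2.05 and 1.80). The region of Yam1 (chr17:39846301-39848085, 1785 bp) also touches Rn18s-rs5, a copy related to 18S ribosomal RNA, and held more reads than any other member. It had 45588 HA reads in mouse 1, 48838 in mouse 2 and 79099 reads in the wild-type library (fold of 0.408, 0.403 to 0.413, and 0.353, 0.349 to 0.357). The 5S ribosomal RNA gene n-R5s185, within Tmem38b, had 12 and 13 HA reads against 43 and 42 wild-type reads (fold of 0.198 and 0.177), and 4 IgG reads in mouse 1 (fold of 1.04). Gm23548, a 106-base RNA within Macf1, had 104 and 67 HA reads against 344 and 287 wild-type reads (fold of 0.214 and 0.133). The IgG library of mouse 1 held 14 reads over the same bases as the 104 HA reads (fold of 2.57). At both places the raw HA reads of mouse 1 were fewer than the wild-type reads and more than the IgG reads. Rmrp, the RNA of RNase MRP, had 50 and 75 HA against 75 and 75 wild-type reads (fold of 0.472 and 0.571) and 75 HA against 159 IgG reads in mouse 2 (fold of 0.498).

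Copies of the 57-base sequence were read at 3 places. Gm23935 had 5537 HA against 1565 IgG reads in mouse 1 (fold of 1.22, 1.16 to 1.29) in a region of 230 bp, and 9910 HA against 13757 wild-type reads in mouse 2 (fold of 0.412, 0.401 to 0.422) in one of 430 bp. Gm24187 had 1947 HA against 523 IgG reads in mouse 1 (fold of 1.29, 1.17 to 1.42), and its interval overlapped that of Gm23935 in the same list. The region on chromosome 4 that encloses Gm25732 and Gm24245 had 2 HA reads in mouse 2 and 160 wild-type reads (fold of 0.00714, 0.000858 to 0.0262), the lowest fold of any member with 20 reads. Gm24245 and Gm23935 have the same bases, and how their reads were placed was not tested.

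Further low members over wild type in a single mouse were Qpctl, a glutaminyl cyclase gene (22 HA against 102 wild-type reads, fold 0.153), Mir3102 within Arhgef17 (221 and 672, fold 0.233), the glycolytic enzyme gene Pgk1 (13 and 49, fold 0.152) and the pseudogene Gm12896 (11 and 33, fold 0.190). Qpctl and Mir3102 lie on chromosome 7, where, of the lists over wild type, only that of mouse 1 had members (131). Pgk1 lies on chromosome X, where, of the lists over wild type, only that of mouse 2 had members (29). For these 3 genes the other mouse thus gave no value over wild type to compare. Over IgG the low members were Mir384 in mouse 1 (22 HA against 32 IgG reads, fold 0.238), and in mouse 2 the region of Eny2 and Gm22392 (13 and 66, fold 0.208) and that of Scarna13 and mmu-mir-3069 (5 and 23, fold 0.230). Just above that limit were Rps7 in mouse 1 (21 HA against 29 IgG reads) and Fkbp3 in mouse 2 (fold of 0.296).

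The imprinted domain of chromosome 12, from which the maternal copy makes the noncoding RNAs Meg3, Rian (a snoRNA host) and Mirg (a microRNA host), holds the fullest members. In mouse 1 the region chr12:109572721-109618080 encloses 18 genes, from Mir493 through Mir127, Mir136 and the coding gene Rtl1 to Mir341 and Mir1188. It had 119 HA, 114 IgG and 63 wild-type reads, giving folds of 0.361 over IgG (0.277 to 0.470) and 1.34 over wild type (0.978 to 1.85). In mouse 2 the IgG list splits the same stretch. The part with Mir493 to Mir136 had 50 HA against 129 IgG reads (fold of 0.409), and the part with Mir341, Mir1188 and Mir370 had 65 HA against 202 IgG reads (fold of 0.340). Over wild type it was 1 region in mouse 2, with 115 HA against 64 wild-type reads (fold of 1.03, 0.750 to 1.42).

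The distal part of the domain gave similar values. Mir134, Mir382, Mir485, Mir154, Mir377, Mir541 and Mir410 lie together within Mirg. Their region had 22 HA against 20 IgG reads in mouse 1 (fold of 0.380), and 23 HA reads with 66 control reads in mouse 2 (fold of 0.368), a mean log2 fold of -1.42 ± 0.03 (SD, n = 2). Over wild type it had 21 HA against 8 wild-type reads in mouse 1 (fold of 1.86, 0.791 to 4.85), and 23 HA reads with 10 control reads in mouse 2 (fold of 1.31, 0.602 to 3.09). A snoRNA-bearing stretch of Rian with Gm24564, Gm23474, AF357425 and Gm23600 had 73 HA against 31 wild-type reads in mouse 1 (fold of 1.67), 87 and 26 in mouse 2 (fold of 1.91), and 96 HA against 294 IgG reads in mouse 2 (fold of 0.345). HA was thus below the list's middle over IgG and, in 6 of the 7 regions with at least 20 reads, above it over wild type. All members on chromosome 12, the domain's among them, had median folds of 0.478 and 0.528 over IgG. Over wild type their medians were 1.30 and 1.11, so this order was not particular to the domain.

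**Figure D4:**
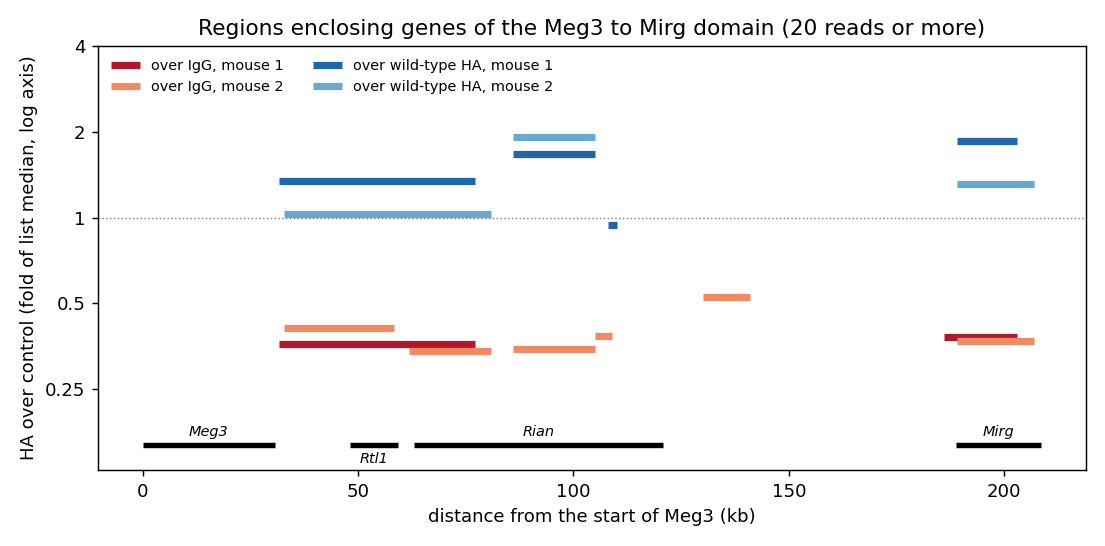
Fold over control (log axis) of the members with at least 20 reads in the Meg3 to Mirg domain, drawn at their extent in kb from the start of Meg3; colour gives the list, black bars the genes. All bars over IgG lie between 0.340 and 0.528, and bars over wild type between 0.944 and 1.91.

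The let-7 genes gave no common direction. The region of Mirlet7b and Mirlet7c-2, within the long noncoding gene Lncppara, had 39 HA against 117 IgG reads in mouse 2 (fold of 0.352, 0.239 to 0.510). Over wild type it had 69 HA against 34 wild-type reads in mouse 1 (fold of 1.44), and 50 HA reads with 30 control reads in mouse 2 (fold of 0.952). Mirlet7f-2 and Mir98, in regions of 95735 and 81400 bp along Huwe1, had 177 HA against 84 IgG reads in mouse 1 (fold of 0.728). In mouse 2 they were enclosed over wild type, where 192 HA reads stood against 245 wild-type reads (fold of 0.448, 0.369 to 0.543). Each of these regions is over 100 times longer than a let-7 hairpin, so the reads cannot be assigned to it.

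Other microRNA genes known from the hippocampus were enclosed at modest folds. From a list of microRNAs with neuronal roles, 6 genes were enclosed in some list, and none reached 4-fold or fell to 0.25-fold. Mir128-1, within R3hdm1, had 11 HA against 3 wild-type reads in mouse 1 (fold of 2.60, 0.686 to 14.5), and 33 HA reads with 7 control reads in mouse 2 (fold of 2.69, 1.17 to 7.22). Mir9-3, within its host gene Mir9-3hg, had 47 HA against 15 wild-type reads in mouse 1 (fold of 2.22, 1.22 to 4.27). Mir29b-2 and Mir29c had 74 HA against 33 wild-type reads in mouse 1 (fold of 1.59), and 8 HA reads with 4 control reads in mouse 2 (fold of 1.14). Mir153 had 29 HA against 17 IgG reads in mouse 1 (fold of 0.589), and 17 HA reads with 18 control reads in mouse 2 (fold of 0.998). Over all enclosed microRNA genes, the regions with 20 reads had a median fold of 0.709 (32 regions), 0.657 (25), 0.971 (55) and 0.963 (50), beside 0.691, 0.656, 1.06 and 1.03 for all members. The fold of such a region is that of the host transcript and the microRNA together.

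MicroRNA genes outside the chromosome 12 cluster that had 20 reads in both mice mostly lay near the middle of the lists. Over IgG, Mir6959 within Sbf1 had 124 HA reads with 48 IgG reads in mouse 1 and 112 HA reads in mouse 2 (folds 0.893 and 0.857, mean log2 -0.19 ± 0.04 SD, n = 2). The same HA reads stood against 125 and 121 wild-type reads (folds 0.702 and 0.529). Mir1249 had folds of 0.537 and 0.748 over IgG, with 1.10 and 0.973 over wild type. Farthest from 1 over IgG in mean log2 fold were Mir6958 below it (0.471 and 0.342) and Mir6940 above it (1.11 and 3.09). Mir6939, within the kinase gene Akt1, had 0.567 and 0.975 over IgG, with 1.26 and 0.762 over wild type, on opposite sides of 1 for the wild-type control. Over wild type the highest in both mice was Mir7017 within Wasf2, a gene of the WAVE family, with 23 and 39 HA reads and 9 and 9 wild-type reads (folds 1.81 and 2.48, mean log2 1.08 ± 0.32 SD). Below 1 in both mice were Gm22801 within Gm12715, the lowest at 0.522 and 0.411 with 42 and 41 HA reads, Mir6940 (0.515 and 0.558), Mir33 within Srebf2 (0.649 and 0.724), Mir6955 (0.649 and 0.791) and Mir1231 (0.775 and 0.556), and nearer to 1 also AC161199.1, Gm27616, mmu-mir-3535 and mmu-mir-7021. Mir7044 (0.780 and 0.779) and Mir705 (0.776 and 0.762) were alike in both mice, and Mir6953 (0.708 and 1.88) was not. All values over wild type share 1 library.

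SnoRNA genes were enclosed mostly within their host genes. Of the snoRNA and scaRNA genes, 11 of 12, 18 of 23, 99 of 103 and 59 of 65 lay on the same strand in a longer gene. The Snhg14 region chr7:59509201-59535600, which encloses 14 snoRNA-class genes, had 126 HA against 61 wild-type reads in mouse 1 (fold of 1.46). A region of Gas5, a growth-arrest host gene, enclosed 10 genes and had 33 HA against 17 wild-type reads in mouse 2 (fold of 1.11). Snora73a and Snora73b, on chromosome 4, had 23 HA against 6 wild-type reads in mouse 1 (fold of 2.71, 1.07 to 8.15), and 27 HA reads with 6 control reads in mouse 2 (fold of 2.57, 1.04 to 7.62), the highest pair over wild type among genes with 20 reads in both mice. Among regions with 20 reads, the median for snoRNA and scaRNA genes was 0.482 (4 regions) and 0.512 (13) over IgG, with 1.12 (30) and 1.11 (21) over wild type.

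From a list of short or intronless neuronal coding genes 4 were enclosed, and their folds ran from 1.00 to 4.01. The highest was Kcns2 over wild type, given above. Gpr27, an orphan receptor gene of 1140 bases, had 32 HA against 5 IgG reads (fold of 2.21, 0.855 to 7.27) and 15 wild-type reads (fold of 1.51) in mouse 1, and 36 HA against 15 wild-type reads in mouse 2 (fold of 1.37). The transcription factor gene Neurod6 had 31 HA against 16 wild-type reads in mouse 2 (fold of 1.11). Gpr26 had 113 HA against 80 wild-type reads in mouse 1 (fold of 1.00). Of the marker genes of hippocampal cells, 3 were enclosed: Neurod6, the vesicular glutamate transporter gene Slc17a7 (184 HA against 122 wild-type reads in mouse 1, fold 1.07) and C1ql2 (8 HA reads with 4 IgG and 8 wild-type reads). All 3 mark excitatory neurons of the hippocampus, and reads were present for each.

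Among other coding genes that lay whole in a region, Shank1, which encodes a postsynaptic scaffold, had 1531 HA against 1137 wild-type reads in mouse 1 (fold of 0.954, 0.883 to 1.03). Camk2n1, an inhibitor of CaMKII, had 159 HA, 54 IgG and 125 wild-type reads in mouse 1 (folds 1.02 and 0.901). Rsrp1 had 244 HA, 596 IgG and 133 wild-type reads in mouse 2 (folds 0.432 and 1.05). The X-linked stretch with Armcx5, Gprasp1 and Mir1970 had 556 HA against 123 IgG reads in mouse 1 (fold of 1.56), while Mir1970 in mouse 2 lay in a region with 566 HA against 446 wild-type reads (fold of 0.725, 0.639 to 0.823). Tomm22, a subunit of the mitochondrial import complex, had 18 and 30 HA reads with 5 and 7 wild-type reads (folds 2.55 and 2.45, mean log2 1.32 ± 0.04 SD, n = 2), while its folds over IgG were 0.366 and 1.67. Its direction over IgG thus differed between the mice. Ribosomal protein genes and copies were enclosed 3, 2, 10 and 6 times, with none at 4-fold or 0.25-fold. Rpl37 had 21 HA against 17 IgG reads in mouse 1, and 15 HA reads with 31 control reads in mouse 2 (fold of 0.427 and 0.511), with folds over wild type of 1.86 and 1.43; its region also holds Snord72. No mitochondrial or histone gene was enclosed. The 3 short genes at Malat1 shared 1 region of 6600 bp with 4115 and 5288 HA against 2146 wild-type reads (fold of 1.36 and 1.41).

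The same coordinates in 2 lists of 1 mouse allow the 3 libraries to be set side by side. In mouse 1, 112 members had identical coordinates over IgG and over wild type, with the same HA reads in all 112. IgG reads exceeded HA reads in 6 of them and wild-type reads exceeded HA reads in 13. In mouse 2, IgG reads exceeded HA reads in 55 of 82 members and wild-type reads in 3. The IgG library of mouse 2 held a median of 27.5 reads in these regions, beside 17.5 HA and 9 wild-type reads. In mouse 1 the medians were 17 HA, 8 IgG and 10 wild-type reads. Wild-type reads exceeded IgG reads in 60 of the 112 members in mouse 1 and in 5 of the 82 in mouse 2. The medians of the 2 controls thus stood in opposite order in the 2 mice, but by little in mouse 1. Regions that enclose no gene were not counted this way, and library totals that could put the controls on 1 scale are unknown.

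Genes enclosed in both mice were few at the extremes. Over IgG, 76 genes were enclosed in both lists (31.5% of mouse 1's and 48.4% of mouse 2's), in 40 and 41 regions, and 71 of them were on chromosomes 12 or 15. Of the 60 with at least 20 reads in each mouse, 6 were above 1 in both, 51 below 1 in both and 3 on opposite sides. Rgag4 and Gm15202 were the 2 at 4-fold or more in both mice. The other 4 above 1 in both were 2900097C17Rik, Mir6951 (1.96 and 1.39), Mir6940 (1.11 and 3.09) and Mir5113 (1.07 and 1.16). For the wild-type control, 203 genes were shared (37.5% and 54.4%). Of 148 with 20 reads in each mouse, 79 were above 1 in both, 40 below 1 in both and 27 on opposite sides. The rest, Cyc1 and Sharpin in a shared region, had a fold of exactly 1 in mouse 2. None of the 148 reached 4-fold in both, and n-R5s185 and Gm23548 were at 0.25-fold or less in both. The lists also held members on different chromosomes. Over wild type those on chromosome 7 (131) were in mouse 1 only and those on X (29) in mouse 2 only. Over IgG those on chromosomes 1 and 6 (22 and 18) were in mouse 1 only. Such members could not add shared genes. Genes that share a region share its reads and are not independent. In all 4 lists 71 genes were enclosed, 46 of them microRNA genes and 69 on chromosomes 12 or 15.

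**Figure D5:**
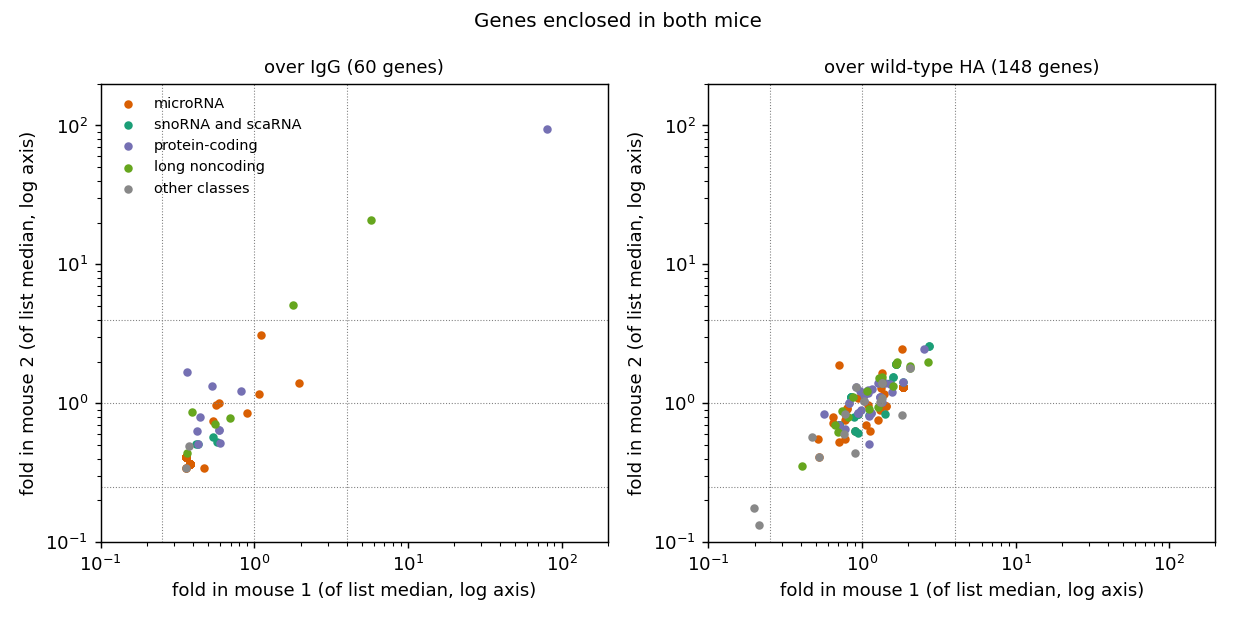
Fold in mouse 2 (y axis) against fold in mouse 1 (x axis), both on log axes, for genes enclosed with at least 20 reads in both mice, over IgG (left, 60 genes) and over wild type (right, 148 genes, 1 shared control library); colour gives the gene class and dotted lines mark 0.25, 1 and 4. Over IgG 51 genes lie below 1 in both mice, and genes in the same region coincide.

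A test over both mice was possible only over IgG. In 80 regions with identical coordinates in both IgG lists and at least 20 reads in each mouse, limma called 74 regions (92.5%) higher in HA. Of the 80, 0 enclosed a gene. All regions tested over IgG were called from these same libraries, so the share called higher depends on that choice and is no independent result. The chromosome median was not used as a scale in the fit of identical coordinates. Without the minimum of reads, 2 members entered, and 1 of them was called higher. This was a region of Gm12481 with 2 and 7 HA against 0 IgG reads (log2 difference 2.39 ± 0.80 SE, limma adjusted p = 0.0458), whose difference depends on the added 0.5. Regions that overlap by at least 50% of each in both IgG lists gave 273 pairs with 20 reads in each mouse, 25 of which were members in both. In this paired limma fit, chosen after the data were seen, 45.1% of all pairs were called higher and 12.8% lower. Of the 25 members, 3 were called higher and 7 lower. With the pooled ratio of each list as the scale the split of all pairs was 109 higher and 95 lower, and of the members 2 higher (Rgag4 and Gm15202) and 18 lower.

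The 3 called higher were Rgag4 (log2 6.42 ± 0.46 SE, limma adjusted p = 2.19e-32), Gm15202 (IgG at 0 in both mice, so that its fitted difference depends on the added 0.5) and 2900097C17Rik (1.59 ± 0.46 SE, limma adjusted p = 0.00137). Members called lower included the stretch from Mir493 to Mir136, whose mouse 1 region reaches on to Mir1188 (log2 -1.38 ± 0.46 SE, limma adjusted p = 0.00576), the Mirg stretch with Mir134 (-1.41 ± 0.46 SE, limma adjusted p = 0.00469), Mir6958 (-1.30 ± 0.46 SE, limma adjusted p = 0.00886) and the ribosomal protein gene Rpl37 (-1.09 ± 0.46 SE, limma adjusted p = 0.0311). The SE is the same for every region because the fit found no difference in spread between regions, so these p-values rest on the spread of all pairs. With the median of the same chromosome as the scale, which leaves 263 pairs, 6.46% were called higher and 2.28% lower. Under that scale of the 23 members only Mir6940 was called higher (log2 1.44 ± 0.47 SE, limma adjusted p = 0.028) and only 2900097C17Rik lower (-2.10 ± 0.47 SE, limma adjusted p = 0.000207). None of the 7 lower calls on chromosomes 12 and 15 remained. Some of their differences stayed nearly as large, as at Mir6958 (log2 -1.16 ± 0.47 SE, limma adjusted p = 0.123) and Rpl37 (-0.94), and others shrank, as in the stretch from Mir493 (-0.76) and the Mirg stretch (-0.80). Rgag4 and Gm15202 have no value there, since mouse 2 has under 10 regions with 20 reads on chromosome X.

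In the authors' deposited table, an adjusted p below 0.05 was given to 73 of 162 members over IgG in mouse 1 (64.6% of all regions of that list) and 92 of 100 in mouse 2 (87.3%). In the authors' deposited table over wild type it was 311 of 339 in mouse 1 (82.3%) and 224 of 259 in mouse 2 (78.8%). The members so called included 3, 64, 37 and 15 regions in which HA reads were at or below control reads. The same count over all regions so called was not made. Among all regions, called or not, HA reads were at or below control reads in 173 of 4191, 782 of 1920, 725 of 5355 and 537 of 5362. These are raw reads of libraries whose totals are unknown.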

How the data were processed

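RNA bound in hippocampal lysates was precipitated and sequenced with 50 cycles, single-end, per the labels' protocols. The submitters' processing notes name TopHat, TopHat2, GRCm38 and mm10, and per the file headers rtracklayer 1.28.9 wrote the lists. No source used here names the region caller. For each region the authors deposited the number of reads of the HA and the control library (other values, not scaled), an adjusted p-value and a false discovery rate. Library totals are not in the lists, so depth per sample is unknown.

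Rows with the same coordinates were merged into 1 region. Classes and positions came from GENCODE M21 (746 of 761 gene identifiers matched), mature microRNAs from RefSeq. Folds and intervals were computed with pandas 2.3.3 and scipy 1.17.1 as described above. Regions over IgG were tested with limma 3.58.1 on log2(reads + 0.5), IgG scaled by the list median, with Benjamini-Hochberg adjustment at 0.05. On simulated reads with changes of log2 4, the identical fit recovered 20 of 20 with 1 false call. The overlap fit recovered 18 of 20 with 0 false calls. Smaller changes and differences in scale between lists or chromosomes were not simulated. No test was made over wild type, whose 1 library both lists share. Mouse numbers come from the labels. Over the 80 regions, the mouse 1 minus mouse 2 differences of HA and IgG had a correlation of -0.04.

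Named genes were, per control, the 8 with most reads, the 6 highest and 6 lowest with 20 reads in both mice, up to 12 most-read microRNA genes and those with 20 reads in both mice, up to 4 per gene list, and up to 10 found in all lists. The lists were microRNAs, hippocampal microRNAs, small nuclear and nucleolar RNAs, housekeeping RNAs, mitochondrial, histone, neuronal short, ribosomal protein and long noncoding genes, and cell markers. Members at or past the fold limits (1 is not reported here), host examples, the other let-7 genes, Mir9-3, Mir128-1, Camk2n1, Gprasp1 and members of the limma fits were also named, chosen after their values were seen. The members and lists were chosen with earlier results of these data known. Alternatives were other scales, minimums and pseudocounts, left-out libraries and the mouse as a block.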

Additional observations from a re-analysis of the deposited data

How the results depend on the processing

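The scale was the choice that moved most values. With the pooled ratio of each list as the scale, which shifts the log2 folds by -0.42, -1.09, 0.73 and 0.93 in list order, the members' medians were 0.517 (IgG, mouse 1), 0.309 (IgG, mouse 2), 1.76 (wild type, mouse 1) and 1.96 (wild type, mouse 2). Members at 4-fold or more were then 2 over IgG in mouse 2 and 11 and 12 over wild type, those at 0.25-fold or less 5 and 29 over IgG, with 0 and 1 over wild type, and 3 genes reached 4-fold in both mice over wild type. With the chromosome median the members' medians were 0.825 and 0.786 over IgG and 1.08 over wild type in mouse 2, 1 member was at 4-fold or more over IgG in mouse 2, and 0 genes in both mice, because chromosome X has too few regions there. With a minimum of 10 reads, 2 members over IgG in mouse 1 were at 0.25-fold or less and 9 over wild type in mouse 1 at 4-fold or more, and the medians were 0.775 (IgG, mouse 2) and 1.09 (wild type, mouse 1). With 50 reads, 1 member was at 0.25-fold or less over IgG in mouse 2 and 1 at 4-fold or more over wild type in mouse 1, and the medians were 0.628 (IgG, mouse 1), 0.966 and 0.917 (wild type). Where enclosed genes cover at least 50% of the region, 1 member each was at 4-fold or more over IgG in both mice and over wild type in mouse 1, and the medians were 0.590 (IgG, mouse 1) and 0.988 (wild type, mouse 1). Without chromosomes 12 and 15, added after the data were seen, the medians were 0.785 and 4.65 (6 regions) over IgG and 1.03 over wild type in mouse 1. The cause of these moves was not tested.

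The limma count of 74 higher regions was 73 with the mouse as a replicate block, and 70 to 78 with each library left out. The overlapping pairs, also blocked by mouse, gave 123 higher, 122 with 1 added and 17 with the chromosome median. The mouse numbers are the only pairing given. Of the mean folds of named genes, 117 moved by more than the spread (SD) between mice under the pooled scale, and 5 did not. With either mouse left out, all 122 stayed within that spread. Leaving out a mouse could not show a move, since each of a pair of values lies closer to their mean than their SD. In these settings no mean fold past 4-fold or 0.25-fold turned direction. Depth also limits the members: 61, 26, 89 and 89 of them hold fewer than 20 reads.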
